A study of Mus musculus with 3 samples.

Results

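The genes described here encode the proteins of the cytosolic and the mitochondrial ribosome, set against where the transcription factor TBX5 bound in the fetal mouse heart. Members were protein-coding RefSeq genes on mm10 chromosomes 1 to 19 chosen by symbol. Symbols starting with Rpl or Rps and a digit, p and a digit, or a gave 87 genes of the cytosolic family, without the Rps6k kinases. Symbols starting with Mrpl or Mrps and a digit gave 78 genes of the mitochondrial family. Together they were 165 of 20665 protein-coding genes. The symbol rule also took in genes that are not ribosomal proteins or are named as copies, such as Rps19bp1, Rps23rg1 and Rpl34-ps1. Bound genes were those with a TBX5 summit, the position of highest signal in a peak, inside the body extended by 10 kb on both sides, so a summit between close genes counted for each of them.

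TBX5 binding was mapped by ChIP-seq (chromatin immunoprecipitation followed by sequencing) in whole hearts dissected from embryos of CD-1 mice, an outbred stock, at E14.5 (embryonic day). The group precipitated with an anti-TBX5 antibody held 2 biological replicates, and the control group held 1 sample of input chromatin, taken without precipitation. All animals shared the CD-1 background, and the labels name no mutant allele, transgene or treatment. Whole hearts mix cardiomyocytes, endocardial, epicardial and stromal cells, and the labels do not say how many hearts entered a sample. The files hold peaks and no expression values, so the tissue was not checked against marker genes. Peaks were called once on the pooled samples, which gave 12436 peaks and no value per replicate. The spread between the replicates therefore stands behind no value below, and no test over samples was possible.

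A ribosome is built from ribosomal RNA and many small proteins of a large and a small subunit. The cytosolic ribosome translates messenger RNA from the nucleus, whereas the mitochondrial ribosome makes a few membrane proteins of the respiratory chain and ATP synthase, on which contraction of heart muscle depends. Genes of both families lie in the nucleus and are short and used in nearly all cells. Many cytosolic members start transcription inside a run of pyrimidines (the terminal oligopyrimidine tract), through which mTOR signalling controls their translation, and many mitochondrial members have promoters with ETS and YY1 sites. TBX5 is a T-box factor of heart and forelimb that binds sites built on the core AGGTGT. No relation of TBX5 to ribosome production is stated in the labels, and the comparison of the families is a description.

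Promoter stretches of 7 members are shown because they carry the strongest summit at a start in each family (Rpl41 and Mrpl34) or a T-box core beside a summit. Each runs from 180 bases before a RefSeq start to 20 bases after it, 5′ to 3′ on the strand of the gene, from the RefSeq promoter table of GRCm38.p6, the assembly that mm10 names. Capitals mark the T-box core AGGTGT or its reverse complement ACACCT, and every other base is in lower case.
Rpl26: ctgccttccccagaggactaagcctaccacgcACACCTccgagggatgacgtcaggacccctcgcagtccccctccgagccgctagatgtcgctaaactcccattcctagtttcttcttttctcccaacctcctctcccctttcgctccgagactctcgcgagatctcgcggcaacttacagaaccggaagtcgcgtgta
Rpl27: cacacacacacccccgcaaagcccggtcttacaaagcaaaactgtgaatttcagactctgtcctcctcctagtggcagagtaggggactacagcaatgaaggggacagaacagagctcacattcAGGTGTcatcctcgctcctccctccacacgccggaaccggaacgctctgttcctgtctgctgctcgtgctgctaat
Rpl34: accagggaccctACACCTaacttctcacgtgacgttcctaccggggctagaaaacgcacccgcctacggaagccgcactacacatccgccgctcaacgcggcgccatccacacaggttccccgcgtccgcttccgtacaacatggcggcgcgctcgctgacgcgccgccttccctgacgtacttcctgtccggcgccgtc
Rpl37: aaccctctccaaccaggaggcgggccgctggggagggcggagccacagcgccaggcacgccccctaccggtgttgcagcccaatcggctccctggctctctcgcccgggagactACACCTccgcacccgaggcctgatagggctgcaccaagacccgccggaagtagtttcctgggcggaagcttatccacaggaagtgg
Rpl41: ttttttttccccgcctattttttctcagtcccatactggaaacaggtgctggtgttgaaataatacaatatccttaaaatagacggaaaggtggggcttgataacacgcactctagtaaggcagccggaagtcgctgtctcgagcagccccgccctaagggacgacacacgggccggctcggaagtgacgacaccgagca
Mrpl34: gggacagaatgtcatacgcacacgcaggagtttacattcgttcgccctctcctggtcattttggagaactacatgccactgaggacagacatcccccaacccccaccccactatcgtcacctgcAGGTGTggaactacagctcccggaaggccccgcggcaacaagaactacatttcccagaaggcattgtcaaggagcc
Mrpl16: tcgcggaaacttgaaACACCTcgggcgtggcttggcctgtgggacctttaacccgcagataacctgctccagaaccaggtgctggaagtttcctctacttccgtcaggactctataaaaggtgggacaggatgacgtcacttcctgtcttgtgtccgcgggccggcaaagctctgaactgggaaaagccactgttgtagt

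Rpl26 (chr11:68901386-68901585, plus strand) holds its core 148 bases before the start, and its summit lay 75 bases before the start, so that 70 bases separated summit and core. In Rpl27 (chr11:101442065-101442264, plus strand) the core begins 56 bases before the start and the summit lay 26 bases after it, at a distance of 80 bases. Rpl34 (chr3:130730379-130730578, minus strand) has its core 168 bases before this start, 64 bases from a summit at 101 bases before it. Rpl37 (chr15:5116433-5116632, plus strand) has the core at 66 bases and the summit at 100 bases before the start, 36 bases apart. That summit, of 5.82-fold (4.35 to 7.63), lay inside the body of Card6, so Rpl37 was not its nearest gene. Mrpl34 (chr8:71464746-71464945, plus strand) brought core and summit closest together, with 28 bases between them. There the core stood 56 and the summit 81 bases before the start. In Mrpl16 (chr19:11770235-11770434, plus strand) the distance was 120 bases. Rpl41 (chr10:128549149-128549348, minus strand), which had the strongest peak of the cytosolic family, shows no such core in these letters, with its summit 133 bases before the start. A match is a description of the letters and not a measured contact of the factor.

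Without regard to gene length, the shares of bound genes in both families and in the genome could not be told apart at these numbers of genes. Of the cytosolic genes, 25 of 87 were bound (28.7%, exact 95% interval 19.5 to 39.4%), and of the mitochondrial genes 30 of 78 (38.5%, 27.7 to 50.2%). Of all protein-coding genes, 6379 of 20665 were bound (30.9%), a value inside both intervals. The cytosolic share was the lower of the pair (difference −9.73 percentage points, 95% Newcombe interval −23.7 to 4.60), an interval that holds 0. These intervals treat genes as independent and cover only the number of genes counted. Within the cytosolic family the large subunit had 15 of 53 genes bound (28.3%) and the small subunit 10 of 34 (29.4%). In the mitochondrial ribosome the large subunit had 21 of 49 bound (42.9%, 28.8 to 57.8%) and the small subunit 9 of 29 (31.0%, 15.3 to 50.8%). Genes of the respiratory chain and ATP synthase, the family nearest in kind to the mitochondrial ribosome, stood between them with 32 of 97 (33.0%, 23.8 to 43.3%).

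The position of the families next to the genome changed with where the summit was sought. In gene bodies alone, 7 cytosolic genes (8.05%, 3.30 to 15.9%) and 11 mitochondrial genes (14.1%, 7.26 to 23.8%) held a summit, against 19.8% of all genes. Within 2 kb the counts were 14 (16.1%) and 21 (26.9%), against 24.8%, and within 50 kb they were 52 (59.8%) and 49 (62.8%), against 51.3%. Counting only peaks in the authors' promoter class, which held summits up to 2000 bp from a start, 22 cytosolic genes (25.3%, 16.6 to 35.7%) and 23 mitochondrial genes (29.5%, 19.7 to 40.9%) were bound, against 17.9% of all genes. With peaks outside that class 6 cytosolic (6.90%, 2.57 to 14.4%) and 11 mitochondrial genes (14.1%, 7.26 to 23.8%) were bound, against 18.1%. The shares of both families thus lay above the genome for promoter-class peaks and below it for the others. The cytosolic interval held the genomic share for promoter-class peaks and lay below it for the rest. The mitochondrial interval lay above the genomic share for promoter-class peaks and held it for the rest.

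Stricter limits on the peaks gave lower counts in both families and over all genes. At −log10 q of at least 10, 7 cytosolic (8.05%) and 12 mitochondrial genes (15.4%) were bound, against 14.2% of all genes. At a fold enrichment of at least 5 over the local background, the authors' own value for each peak, the counts were 12 (13.8%) and 16 (20.5%), against 19.2%. When each summit was given to its nearest protein-coding gene alone, 13 cytosolic (14.9%, 8.20 to 24.2%) and 18 mitochondrial genes (23.1%, 14.3 to 34.0%) had one, against 24.7%. A summit within 1 kb of a RefSeq start, a measure added after seeing the data, was found for 10 of 66 cytosolic genes (15.2%, 7.51 to 26.1%) and 15 of 69 mitochondrial genes (21.7%, 12.7 to 33.3%) with an entry in the promoter table, against 11.8% of all genes with an entry. Under each of these rules the cytosolic share was the lower of the pair, and each interval of the difference held 0.

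**Figure D1:**
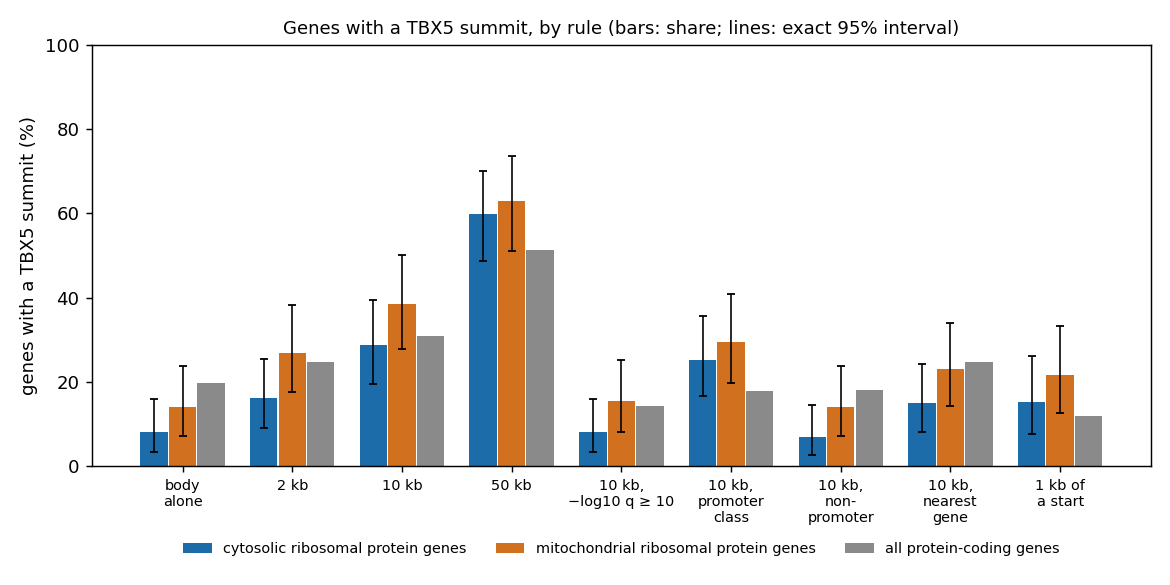
Share of genes with a TBX5 summit (vertical axis, percent) under 9 rules (horizontal axis) for cytosolic (blue) and mitochondrial (orange) ribosomal protein genes and all protein-coding genes (grey), with exact 95% intervals as lines. At 10 kb the bars stand at 28.7, 38.5 and 30.9%, and for bodies alone at 8.05, 14.1 and 19.8%.

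Both families are short, and long genes offer more room for a summit. The median body was 3.18 kb in the cytosolic family (longest 16.8 kb), 7.69 kb in the mitochondrial family (longest 122 kb) and 17.5 kb over all genes. Among bodies under 5 kb, 17 of 71 cytosolic genes (23.9%, 14.6 to 35.5%) and 13 of 25 mitochondrial genes (52.0%, 31.3 to 72.2%) were bound, against 13.4% of all genes of that length. Both intervals lay above the share of all genes. Here the difference was −28.1 points (−47.9 to −6.48), the only one of 13 intervals by rule and length that did not hold 0. Among bodies of 5 to 10 kb the order turned, with 7 of 14 (50.0%, 23.0 to 77.0%) and 8 of 30 (26.7%, 12.3 to 45.9%), against 23.3%, and a difference of 23.3 points (−5.90 to 49.7). At this length both intervals of shares held the share of all genes. Of bodies of 10 to 20 kb, 1 of 2 cytosolic and 2 of 13 mitochondrial genes (15.4%) were bound, against 26.7%. No cytosolic gene was longer. Of mitochondrial genes of 20 to 50 kb, 2 of 4 were bound, against 32.5%, and of those of 50 kb and above 5 of 6 (83.3%), against 53.8%. The difference between the families thus had no constant direction over gene length.

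**Figure D2:**
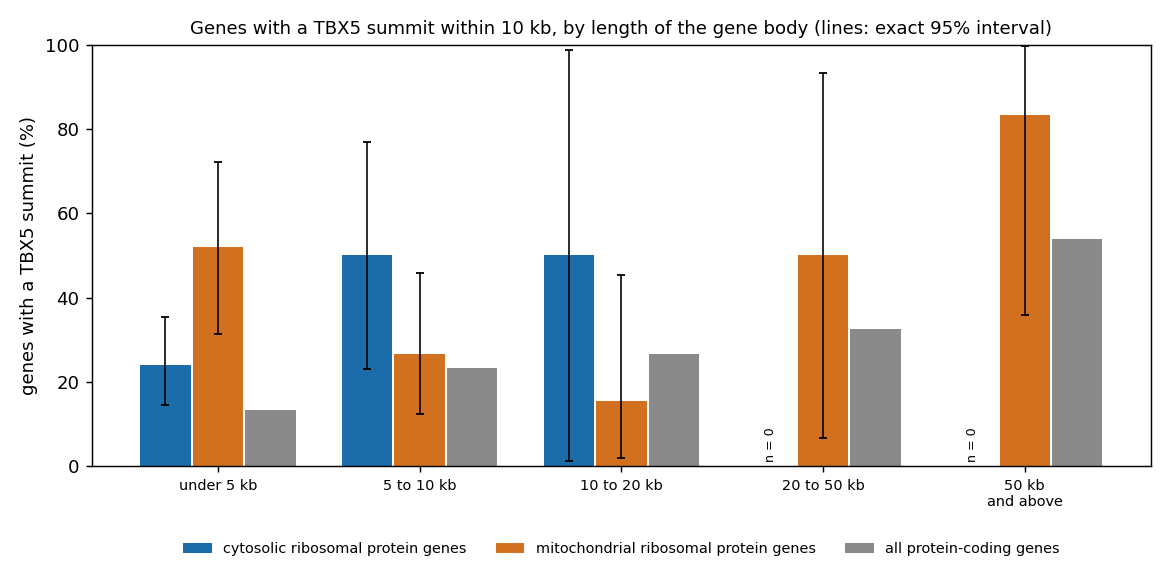
Share of genes with a summit within 10 kb (vertical axis, percent) by length of the gene body (horizontal axis) for cytosolic (blue), mitochondrial (orange) and all protein-coding genes (grey), with exact 95% intervals as lines. Under 5 kb the bars stand at 23.9, 52.0 and 13.4%, and at 5 to 10 kb the cytosolic bar is the higher, at 50.0 against 26.7%.

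Close neighbours touched many of these counts. Another coding gene lay within 10 kb of all but 10.3% of cytosolic and 15.4% of mitochondrial genes, whereas 36.3% of all genes had none. Of 35 pairs of a cytosolic gene and a summit, 31 had the summit also in the window of another coding gene, and of 45 mitochondrial pairs 31 did. No such count over all genes is given here. Among bound genes the member was the nearest gene to at least 1 of its summits in 13 of 25 cytosolic (52.0%, 31.3 to 72.2%) and 18 of 30 mitochondrial cases (60.0%, 40.6 to 77.3%). All summits of the other 12 and 12 genes lay nearer to another gene. Over all protein-coding genes, 5100 of the 6379 bound ones were the nearest gene to a summit. Which gene a summit acts on was not tested.

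Named pseudogenes, which carry copies of ribosomal sequence without being the source genes, gave a further comparison. Of 286 annotated pseudogenes named after cytosolic members, 26 had a summit within 10 kb (9.09%, 6.02 to 13.0%), against 5.89% of 9319 pseudogenes of all kinds. None of the 286 held a summit in its body, which allows a share of up to 1.28% (exact upper bound). The share in bodies was not computed over all pseudogenes, so this count has no background beside it. Of 6 pseudogenes named after mitochondrial members none was bound. Reads from near-identical copies can be lost or misplaced in alignment, and how the authors treated them was not given in the sources used here.

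Rpl41, which encodes a very short basic protein of the large subunit, had the strongest peak of the cytosolic family. The peak at chr10:128548962-128549443 had a fold of 12.9 (exact 95% Poisson interval 9.78 to 16.7, from a pileup of 55 pooled fragments over a background of 3.34). The summit lay 133 bp upstream of the RefSeq start, in promoter-class chromatin with H3K4me3, H3K9ac and H3K27ac. A weaker summit of 3.40-fold (2.23 to 4.99) lay 295 bp from the other end of Rpl41, at the start of its neighbour Zc3h10. Among the 25 bound cytosolic genes, Rpl41 and Rpl3 reached a fold of 10, and 13 stayed under 5. Over all genes, 3960 of the 6379 bound ones had a peak of at least 5. By peaks, 5.88% of the cytosolic ones reached 10, next to 16.7% of all peaks and 4.84% of all promoter-class peaks. The median of the highest fold per bound cytosolic gene was 4.77 (lowest 3.35, highest 12.9).

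Rpl3, whose product reaches towards the peptidyl transferase centre, had 3 summits. The strongest, at chr15:80083211-80083572, had a fold of 10.5 (7.51 to 14.2) and lay at one end of the gene in active promoter chromatin. A summit near the other end had 7.25 (5.16 to 9.93) and carried H3K27ac and H3K4me1 without H3K4me3. The last one, of 4.68 (2.84 to 7.34), lay 8120 bp outside, at the start of Syngr1, and overlapped an H3K27me3 region. Rps16, a protein of the small subunit, also had 3 summits, of which those of 4.39 (2.82 to 6.55) and 3.63 (2.20 to 5.69) lay at its own start. Its strongest, of 8.66 (5.77 to 12.5), lay 5428 bp outside and 1477 bp from Plekhg2, which encodes a guanine nucleotide exchange factor. The 10.5 and 7.25 of Rpl3 were thus at its own ends, whereas the highest value counted for Rps16 was nearer to a neighbour.

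Rpl7 had 3 summits, with 4.49 (2.94 to 6.59) and 3.65 (2.24 to 5.66) near one end and 5.59 (3.23 to 9.13) 5584 bp away, at a site without any of the histone marks. Rps19bp1, which is not a ribosomal protein but a binding partner of RPS19, had 4 summits between 4.19 and 6.51. All of them lay 4679 to 9823 bp outside the gene around Atf4, the transcription factor of the integrated stress response, and Mief1. None of the 4 therefore had Rps19bp1 as its nearest gene. Rps2, which encodes a small-subunit protein, and Rpl3l, the muscle paralogue of Rpl3, shared 1 summit of 4.77 (3.13 to 7.01), and this lay 30 bp from Ndufb10, a subunit gene of complex I.

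The stalk of P proteins, which draws translation factors to the large subunit, had 2 of 3 genes bound (66.7%, 9.43 to 99.2%), next to 30.9% of all genes. Rplp0 had a peak of 4.21 (2.75 to 6.18) with its summit 145 bp inside the gene. Rplp2 counted a peak of 7.06 (4.70 to 10.2), but its summit lay 3770 bp outside and 59 bp from Pnpla2, the gene of adipose triglyceride lipase. Rplp1 had no summit within 10 kb, the nearest lying 208520 bp away. The proteins that bind 5S ribosomal RNA or the ubiquitin ligase Mdm2, encoded by Rpl5, Rpl11 and Rpl23, had 0 of 3 genes bound (upper bound 70.8%), with nearest summits at 78225, 85627 and 107522 bp. At these loci no peak was called on the pooled samples, which does not show that the factor is absent.

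Of 20 genes that are mutated in Diamond-Blackfan anaemia, an inherited failure of red cell production, 6 were bound (30.0%, 11.9 to 54.3%), next to 30.9% of all genes. Rpl26 (5.52, 3.61 to 8.10), Rps7 (4.20, 2.67 to 6.32) and Rpl27 (4.09, 2.84 to 5.73) had their summits at their own starts. Rps24 counted a peak of 7.05 (4.49 to 10.6) that lay at the start of Polr3a, the largest subunit of RNA polymerase III. Rpl18 counted one of 5.52 (3.65 to 8.05) that lay 9269 bp away in Dbp, a clock-controlled transcription factor gene. Rps15a had one of 5.13 (2.90 to 8.51) 4989 bp outside its body, at a site without histone marks. Of the 6 calls, 3 lay at a member's own start.

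Of 7 paralogues of restricted or alternative use, Rpl3l alone was bound, through the summit at Ndufb10 (14.3%, 0.361 to 57.9%, next to 30.9% of all genes). Rpl10l and Rpl39l, which are used in the testis, had their nearest summits 896118 and 137218 bp away. Rpl22l1, Rpl7l1, Rpl36al and Rps27l, the last of which responds to p53, had theirs at 168510, 67122, 27227 and 24836 bp. Small nucleolar RNAs, which guide modification of ribosomal RNA, lie in introns of many cytosolic members. Of 22 members whose bodies held 33 such genes, 7 were bound, and of 65 without one 18 were, next to 30.9% of all genes. No mitochondrial member was a host.

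In the mitochondrial family Mrps28, a small-subunit protein gene mutated in a human mitochondrial disease, had 5 summits, more than any other member. The strongest, at chr3:8893443-8893842, had a fold of 12.5 (9.29 to 16.6) and another had 9.94 (6.81 to 14.1). Both lay deep in the body, 30271 and 69010 bp from the start that the authors' table names, in chromatin the authors class as poised (H3K4me1 without H3K27ac). One more summit in the body had 3.85 (2.08 to 6.63), and the remaining pair near the promoter end had 3.92 (2.26 to 6.40) and 2.73 (1.74 to 4.10). With a body of 122 kb, Mrps28 was the longest member. Its strongest summits thus lay far inside the gene and its promoter summits were weaker.

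Mrpl34, a large-subunit protein gene, had the strongest promoter peak of the mitochondrial family. The peak at chr8:71464246-71465223 was 9.92-fold enriched (7.79 to 12.5) with a pileup of 72 fragments, and its summit lay 81 bp before the start of Mrpl34 and 138 bp from Abhd8. It overlapped regions of H3K4me3, H3K9ac, H3K27ac and TBX3. A further summit of 4.85 (3.09 to 7.30) lay 244 bp beyond the body. Mrps16 (6.58, 4.51 to 9.31) and Mrps17 (6.01, 3.87 to 8.97), small-subunit protein genes, had their strongest summits within 103 and 18 bp of their starts, and both peaks overlapped TBX3 regions. Mrpl54 counted a promoter-class peak of 8.96 (6.10 to 12.7) 21 bp beyond one end of its body, inside the body of Apba3. The authors' table likewise places this summit 21 bp upstream of a start. Mrpl48 had 6.24 (4.35 to 8.69) near an end, 165 bp from Rab6a, and 3.70 (2.35 to 5.57) in its body. The latter was of promoter class, 274 bp from another RefSeq start of Mrpl48.

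Other strong mitochondrial members owed their values to summits away from their starts. Mrpl58, the gene of a peptidyl-tRNA hydrolase built into the large subunit, had 3 summits, and the one of 12.3 (9.15 to 16.2) lay inside Atp5h, a subunit gene of ATP synthase. Its summit of 4.94 (3.04 to 7.66) lay 96 bp from an end, and the last, of 2.74 (1.78 to 4.05), at the start of Kctd2. Mrpl36 counted summits of 11.5 (8.59 to 15.2) and 5.48 (3.27 to 8.70), at 4779 and 7381 bp outside, neither in the promoter class. Mrpl14 had 8.96 (6.10 to 12.7) at 2594 bp outside and 3.01 (1.87 to 4.61) at its start. Mrps9 had 7.71 (4.79 to 11.8) in poised chromatin 5084 bp outside and 6.51 (4.10 to 9.89) in its body.

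Mrps27, the gene of a protein with pentatricopeptide repeats, had 3 summits of 5.04 (2.91 to 8.22), 4.99 (2.82 to 8.28) and 4.71 (3.16 to 6.78), and only the last lay at its promoter, 14 bp from its divergent neighbour Ptcd2. Mrpl53 counted 7.37 (5.34 to 9.94) at the start of Ccdc142 and 2.85 (1.87 to 4.19) near its own. Mrps6 had a single summit of 4.81 (2.77 to 7.85) in its body, outside the promoter class. Besides Mrps28 and Mrps16, the bound members of 15 human disease genes were Mrpl24 (6.39, 4.55 to 8.75), Mrps7 (4.88, 3.30 to 6.98) and Mrps34 (4.29, 2.56 to 6.80), all with the summit nearer to a neighbour. This made 5 of 15 (33.3%, 11.8 to 61.6%), next to 30.9% of all genes. Over the 30 bound mitochondrial genes the median of the highest fold was 5.19 (lowest 3.01, highest 12.5), with 3 genes at 10 or more and 14 under 5. By peaks, 6.67% of the mitochondrial ones reached 10, next to 16.7% of all peaks and 4.84% of all promoter-class peaks.

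**Figure D3:**
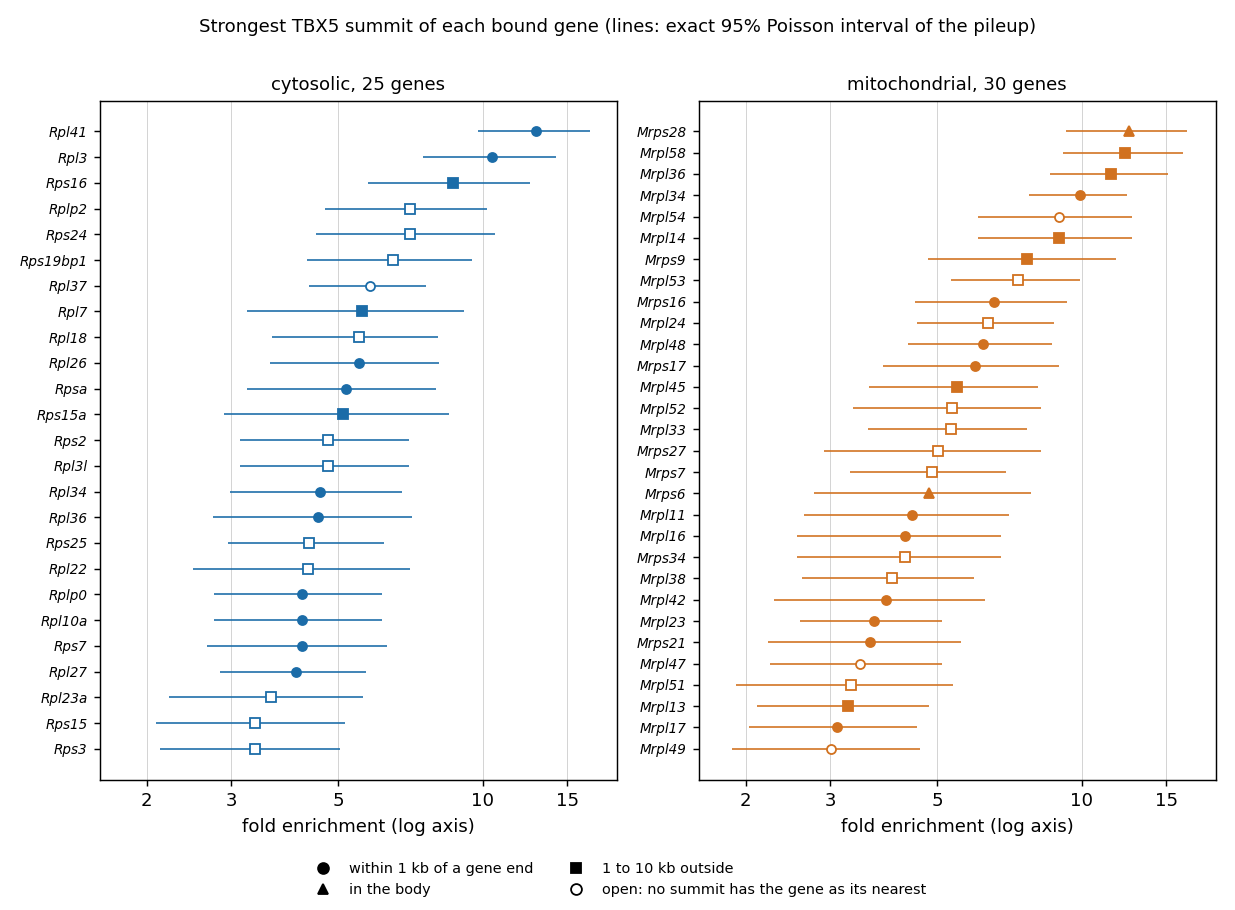
Fold enrichment of the strongest summit (horizontal log axis) of each of the 25 bound cytosolic and 30 bound mitochondrial genes (rows), with exact 95% Poisson intervals as lines, symbols for the location and open symbols where no summit has the gene as its nearest. Rpl41 (12.9) and Mrps28 (12.5) lead their families, and most intervals of the other genes overlap.

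Summits were also counted by their place next to the gene. Of the 35 cytosolic pairs of gene and summit, 17 lay within 1 kb of an end of the gene, all of promoter class (median fold 4.49), none lay deeper in a body, and 18 lay 1 to 10 kb outside. Of the 45 mitochondrial pairs, 20 lay within 1 kb of an end (19 of promoter class, median fold 4.10), 6 deeper in a body (median fold 5.66) and 19 outside (5.35). Of the 6 in a body, those of 12.5, 9.94 and 3.85 were all in Mrps28. The one in Mrpl48, of 3.70, was of promoter class. The families differ in body length too, and its part in the count of body summits was not tested. Promoter class is defined by closeness to a start of any gene. Of pairs with a promoter-class summit within 10 kb of the member's own RefSeq start, 11 of 20 cytosolic and 16 of 22 mitochondrial ones had it within 1 kb. The summit shared by Rps2 and Rpl3l counted for each of them. At the limit of the window, Rpl18 (9269 bp), Rps3 (9100 bp) and Mrpl52 (8795 bp) were just inside, and Mrpl55 (10560 bp), Mrpl28 (11816 bp) and Mrps14 (11895 bp) just outside. Among unbound genes the median distance to the nearest summit was 52.2 kb in the cytosolic and 61.0 kb in the mitochondrial family, against 99.5 kb over all unbound genes.

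**Figure D4:**
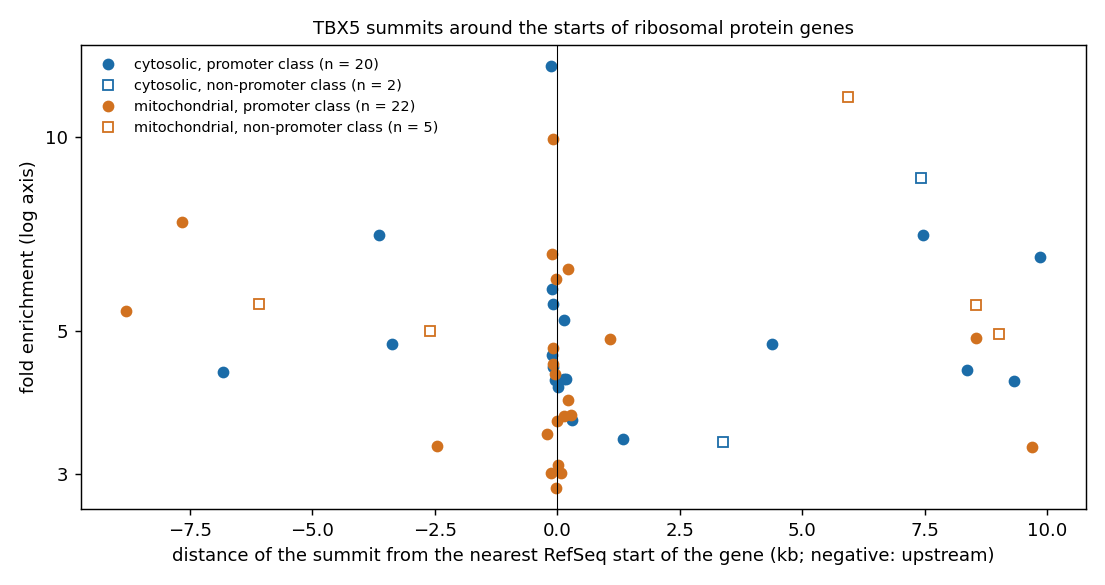
Fold enrichment (vertical log axis) against the distance in kb of a summit from the nearest RefSeq start of the gene (horizontal axis, negative upstream) for summits within 10 kb of a known start of cytosolic (blue) and mitochondrial (orange) genes, filled for promoter class and open for the others. Each point is a pair of gene and summit. Of the promoter-class pairs, 11 of 20 cytosolic and 16 of 22 mitochondrial ones stand within 1 kb of the start, among them Rpl41 (12.9) and Mrpl34 (9.92).

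Some starts are shared. A start of another gene in the opposite direction lay within 1 kb for 24 of 69 mitochondrial genes (34.8%, 23.7 to 47.2%), 9 of 66 cytosolic genes (13.6%, 6.43 to 24.3%) and 8.77% of all genes with an entry, which are lower bounds since the promoter table lacks some genes. A summit within 1 kb of the start was found for 4 of the 24 divergent mitochondrial genes, namely Mrpl14 with Tmem63b, Mrpl47 with Ndufb5, Mrpl49 with Fau and Mrps27 with Ptcd2, and for 11 of the other 45 (24.4%). The Mrpl49 and Fau pair joins a mitochondrial ribosomal gene and the gene of the cytosolic protein RPS30 across 1 summit of 3.01-fold (1.87 to 4.61). None of the 9 divergent cytosolic genes had such a summit, against 10 of the other 57 (17.5%). Over all genes with an entry, 23.6% of divergent and 10.6% of other genes did.

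The 34 distinct cytosolic and 45 mitochondrial summits were then compared in the deposited annotations, whose mark regions come from ENCODE with tissue and age not given in the sources used here. Promoter class took 28 of the 34 cytosolic peaks (82.4%, 65.5 to 93.2%) and 28 of the 45 mitochondrial ones (62.2%, 46.5 to 76.2%), next to 24.6% of all peaks. H3K4me3, a mark of active promoters, overlapped 85.3 and 66.7% of them, next to 31.8% of all peaks and 90.9% of all promoter-class peaks. H3K27ac overlapped 91.2 and 80.0%, next to 73.5 and 93.9%. H3K4me1, which is typical of enhancers, overlapped 47.1 and 57.8%, next to 72.3 and 39.7%. For these 3 marks the members' shares lay between those of all peaks and of promoter-class peaks. H3K27me3, the Polycomb mark, overlapped 2 cytosolic peaks (5.88%, 0.720 to 19.7%), at Rnf207 near Rpl22 and at Syngr1 near Rpl3, and 0 mitochondrial ones (upper bound 7.87%), next to 1.63% of all peaks and 2.52% of promoter-class peaks. Both intervals held these shares.

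Regions of TBX3, a T-box factor of the conduction system, overlapped 9 of the 34 cytosolic peaks (26.5%) and 15 of the 45 mitochondrial peaks (33.3%), next to 27% of all peaks. Among promoter-class peaks the overlap was 7 of 28 (25.0%) and 9 of 28 (32.1%), next to 45.0% of all promoter-class peaks. The authors' class of poised chromatin outside promoters held 4 mitochondrial peaks (8.89%, 2.48 to 21.2%), in or near Mrps28, Mrps9 and Mrps27, and 0 cytosolic ones (upper bound 10.3%), next to 14.2% of all peaks. Promoter-class peaks of the members had a median fold of 4.51 in the cytosolic and 3.98 in the mitochondrial family, next to 4.40. Outside that class the medians were 4.88 and 5.48, next to 6.23. The local background at promoter-class peaks had a median of 4.24 in the cytosolic and 4.94 in the mitochondrial family, next to 4.24 for all such peaks and 2.83 for all peaks. The part of this higher background in the calls was not tested.

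Promoter windows of 300 bases, from 250 before to 50 after each RefSeq start, were searched on both strands for fixed letters. They covered 78 starts of 66 cytosolic genes, 75 starts of 69 mitochondrial genes and 20085 coding starts in all. The T-box core AGGTGT stood in 14.1% of cytosolic (7.26 to 23.8%) and 10.7% of mitochondrial windows (4.72 to 19.9%), next to 12.7% of all. The longer form AGGTGTGA, which contains the core, stood in 0 windows of either family and in 1.17% of all. The ETS core CCGGAAG stood in 33.3 and 34.7%, next to 11.9%. The YY1 core AAGATGGC stood in 10.3 and 16.0%, next to 3.06%. A run of at least 8 pyrimidines over or within 3 bases of the start was found in 30.8% of cytosolic (20.8 to 42.2%) and 6.67% of mitochondrial windows (2.20 to 14.9%), next to 8.06%. So ETS and YY1 letters were more frequent in both families than over all starts, and pyrimidine runs in the cytosolic family. These shares count windows and not genes. Overlapping windows of a gene can hold the same site, as for YY1 at Rpl35a and ETS at Rps21, and the intervals do not allow for this.

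The Sp and KLF box GGGCGG stood in 56.4% of cytosolic and 52.0% of mitochondrial windows, next to 47.0%, and the E-box CACGTG, bound by MYC, in 10.3 and 9.33%, next to 7.89%. The NRF1 core GCGCATGC stood in 3.85 and 10.7%, next to 3.55%, the GATA site AGATAA in 5.13 and 14.7%, next to 9.57%, and the TATA box TATAAA in 8.97 and 6.67%, next to 12.7%. Of 12 cytosolic windows with a summit within 1 kb of the start, 5 held the T-box core (41.7%, 15.2 to 72.3%), and of 66 without one 6 did (9.09%, 3.41 to 18.7%). The 5 windows belong to 4 genes, Rpl26, Rpl27, Rpl37 and Rpl34, whose pair of overlapping windows shares 1 core. Of mitochondrial windows, 2 of 18 with a summit (11.1%) and 6 of 57 without (10.5%) held it, and of all coding starts 14.2% with and 12.6% without. A pyrimidine run stood in 1 of the 12 cytosolic windows with a summit, which was at Rpl34 with 20 bases, and in 23 of the 66 without (34.8%, 23.5 to 47.6%). These counts are small, share genes between windows, and were not tested.

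**Figure D5:**
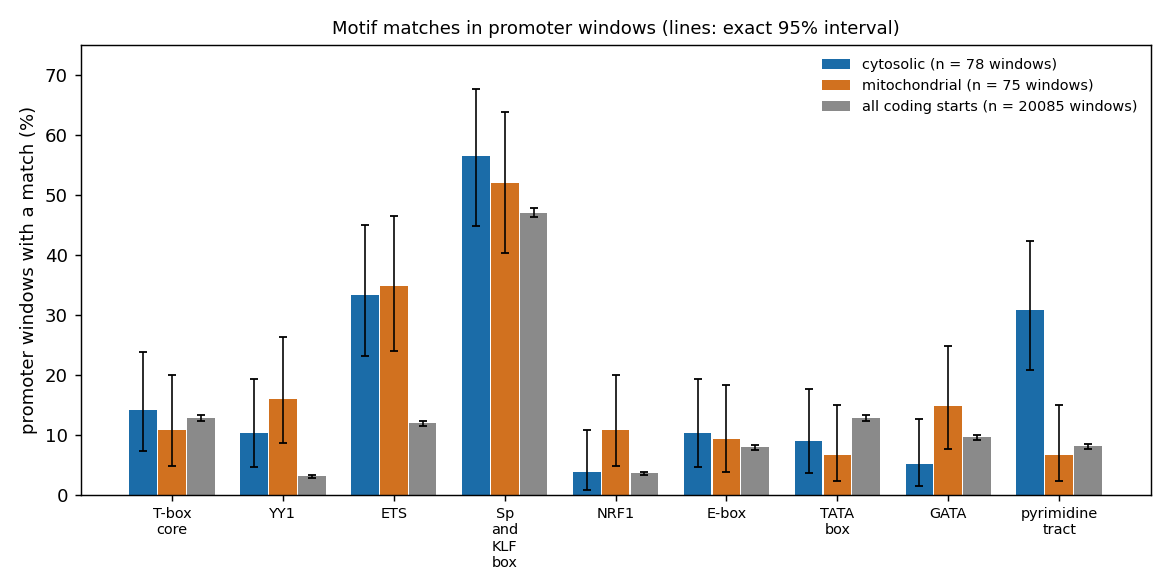
Share of 300-base promoter windows that hold a motif (vertical axis, percent) for 9 sequence features (horizontal axis) in 78 cytosolic (blue), 75 mitochondrial (orange) and 20085 windows of all coding starts (grey), with exact 95% intervals as lines. The ETS core stands at 33.3 and 34.7% against 11.9%, and the T-box core at 14.1 and 10.7% against 12.7%.

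Other genes of the ribosome pathway were taken from lists, and no list was controlled for gene length. Among cytosolic ribosomal genes under other names, Fau (3.01, 1.87 to 4.61) was bound and the scaffold gene Rack1 was not. Of 6 mitochondrial ribosomal genes under other names, 3 were bound (50.0%, 11.8 to 88.2%), next to 30.9% of all genes. These were Chchd1 (5.99, 3.96 to 8.74), Dap3 (5.98, 3.45 to 9.76), with its strongest summit 7166 bp outside in poised chromatin, and Aurkaip1 (3.01, 1.87 to 4.61). Ribosome biogenesis had 11 of 28 genes bound (39.3%, 21.5 to 59.4%), next to 30.9% of all genes. The list was led by Polr1c (13.2, 10.2 to 16.9), a subunit shared by RNA polymerases I and III, whose summit lay 3954 bp outside. Mycn, a gene of the MYC family, had a promoter-class peak of 3.26 (2.12 to 4.83) 49 bp beyond one end of its body. Myc had none within 10 kb. The authors' table likewise places the Mycn summit 49 bp upstream of a start. A list of cytosolic translation factors and mTOR signalling genes had 15 of 26 bound (57.7%, 36.9 to 76.6%), next to 30.9% of all genes. Gene length was not controlled. The bound mTOR signalling genes were Mtor, Rptor, Rps6kb2 and Eif4ebp1. Bound elongation factor genes included Eef1a1 (4.36, 2.95 to 6.23) and Eef2 (4.67, 2.97 to 7.03, 681 bp outside). The initiation factor gene Eif3f counted a peak of 7.65 (4.70 to 11.9). Its summit lay 4292 bp outside and 35 bp from the start that the authors' table names. The mTOR partner gene Rptor had 9.67 (6.85 to 13.3), with its strongest summit in poised chromatin in its body. A list of mitochondrial translation, ribosome assembly and transcription genes had 9 of 28 bound (32.1%, 15.9 to 52.4%), next to 30.9% of all genes. It also held transcription factor genes, of which Gabpa, Gabpb1, Yy1 and Tfb2m were bound. Bound genes of this list included the elongation factor genes Tsfm (6.53, 4.28 to 9.60) and Gfm1 (5.96, 3.97 to 8.63) and the transcription factor genes Gabpa (5.01, 3.03 to 7.85) and Yy1 (3.22, 2.13 to 4.70). The Gfm1 peak, at chr3:67463694-67463898, lay inside the body (chr3:67430115-67475068) and at neither of its ends. Its summit was 112 bp from the start that the authors' table names.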

How the data were processed

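TBX5 ChIP-seq of E14.5 hearts (2 ChIP samples, 1 input) was aligned and called with Bowtie2, SAMtools and MACS2 on mm10 and annotated with ChIPseeker, per the submitters' processing notes, which give no versions, settings or roles. Replicates were pooled before the call, per the file headers and names. Fold enrichment is a ratio of ChIP signal to local background at the summit, deposited by the authors. The −log10 p and −log10 q were also deposited. The deposited score equals −log10 q times 10 without its decimals and was not used further. Read depth per sample and the overlap rules, tissue and age behind the regions of histone marks and TBX3 were not given in the sources used here. A mark with a pair of region files counted if either overlapped.

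From these values the summit pileup and background were solved for each of the 12436 peaks (largest misfit of −log10 p 0.000242). The interval of a fold is exact (95%, Poisson) for the pileup and takes the background as known. Intervals of shares are exact Clopper-Pearson, and those of differences Newcombe. They cover counting error only. Gene bodies came from a RefSeq table of GRCm38.p6 without exons, so no summit was placed in an exon, intron or UTR. Strands and starts came from the RefSeq promoter table, which held 135 of the 165 members (66 cytosolic, 69 mitochondrial) and lacked 30. Positions are 1-based on mm10.

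Named members were the 10 with the highest fold in each family, those with at least 2 summits, those with their strongest summit in the body outside the promoter class, the role lists (bound genes only for the disease lists) and those with the nearest summit 10 to 12 kb away. One gene of the pathway lists is not reported here. Promoter examples, Mrpl16 among them, were chosen after their values were seen. The members, lists and alternatives were chosen with earlier results of these data known. Alternatives covered the window, peak strength, peak class, nearest gene and member rules. A measure at the start and a limit on body length were added after seeing the data. Scripts were tested on simulated data and run in Python 3.11.15 with scipy 1.17.1, numpy 2.4.6, matplotlib 3.10.9 and pandas 2.3.3.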

Additional observations from a re-analysis of the deposited data

How the results depend on the processing

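The cytosolic share of bound genes moved from 28.7% to 8.05% with bodies alone, 16.1% at 2 kb, 59.8% at 50 kb, 8.05% at −log10 q of at least 10, 13.8% at a fold of at least 5, 6.90% for peaks outside the promoter class and 14.9% for nearest genes. The mitochondrial share moved from 38.5% to 14.1%, 26.9%, 62.8%, 15.4%, 20.5%, 14.1% and 23.1% in the same order. Within 1 kb of a start, a measure added after seeing the data, the shares were 15.2% and 21.7%. The difference between families kept its sign in each of these settings (−10.8 to −3.05 points), and its interval held 0 in each. By body length it did not, with −28.1 points (−47.9 to −6.48) under 5 kb and 23.3 points (−5.90 to 49.7) at 5 to 10 kb. The share of promoter-class peaks moved to 94.4% at 2 kb, 62.5% at 50 kb and 93.8% for nearest genes in the cytosolic family, and to 77.8% at 2 kb and 46.2% at −log10 q of at least 10 in the mitochondrial family. The median highest fold moved to 5.69 at 50 kb and 7.06 at the stricter q in the cytosolic family, and to 8.33 at the stricter q in the mitochondrial family. The share of bound genes that were nearest to a summit moved to 85.7% at 2 kb, 28.8% at 50 kb and 28.6% at the stricter q in the cytosolic family, and to 38.8% at 50 kb in the mitochondrial family. Wider windows hold more summits by construction. Narrower windows, limits on the peaks and the nearest-gene rule keep only a part of the same pairs, so under them the shares of bound genes could not rise. The stricter q also takes weaker peaks out of the median fold. The cause of the other shifts was not tested. The cytosolic share was 31.5% without the 14 paralogue-named or non-ribosomal members, 27.5% with chromosome X and 28.2% for bodies of up to 10 kb, the last chosen after seeing the data. Of the 55 highest folds, 20 were lost at 2 kb and 36 at the stricter q. No paired analysis was possible because the peaks come from pooled samples and the ChIP and input groups share fewer than 2 replicate numbers. Leaving out each replicate was not run for the same reason.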
